A study of Mus musculus with 21 samples.

Results

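The genes described here are 31 members of fatty acid oxidation, ketone body formation and the targets of PPAR-alpha, followed through the cecum of mice on 4 diets. They were taken by symbol from a deposited table of raw RNA-seq counts that listed 25361 genes in 21 libraries, and all 31 had a row. Mice of the inbred strain C57BL/6 were 3 weeks old when they went onto the Total Western Diet, a rodent diet matched to typical American nutrient intake. After 6 weeks they were kept for 3 more weeks on that diet with 0% (6 libraries), 0.5%, 1.0% or 2.5% broccoli powder (5 libraries each), so the 0% mice carried the same Western diet background. The labels number the animals and name no cage, so each library was taken as 1 mouse, and p-values measure the spread between these libraries. Library totals were 28514263 to 58594569 counts.

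Long-chain fatty acids are burned in mitochondria after the carnitine shuttle carries them across the inner membrane. There, acyl-CoA dehydrogenases, hydratases, hydroxyacyl-CoA dehydrogenases and thiolases shorten the chain step by step, and the electrons pass through the electron transfer flavoprotein to the respiratory chain. Peroxisomes run a related pathway. PPAR-alpha is a nuclear receptor that is activated by fatty acids and that, paired with the retinoid X receptor, binds direct repeats of a short half-site and switches on much of this pathway. In the large bowel the epithelium takes much of its energy from the oxidation of short-chain fatty acids made by bacteria, and it can form ketone bodies from them.

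Promoter sequences are shown for 4 members. They include both fatty acid binding protein genes, Fabp2, the highest member by level, and Fabp1, which was too low to test. The others are Pdk4, the member with the largest fitted change, and Hadhb, which starts head to head with its partner Hadha. Each run holds the 250 bases before the RefSeq start, 5′ to 3′ on the gene's strand, build GRCm38.p6. Capitals mark the matches described after the sequences; single half-sites are left in lower case. Fabp1 is at chr6:71199629-71199878 (plus strand), Fabp2 at chr3:122894822-122895071 (plus strand), Pdk4 at chr6:5496279-5496528 (minus strand) and Hadhb at chr5:30155003-30155252 (plus strand).
Fabp1: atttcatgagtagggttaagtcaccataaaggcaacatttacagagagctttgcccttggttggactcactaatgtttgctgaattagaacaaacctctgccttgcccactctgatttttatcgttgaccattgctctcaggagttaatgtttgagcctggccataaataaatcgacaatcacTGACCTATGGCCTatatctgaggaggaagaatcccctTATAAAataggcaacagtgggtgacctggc
Fabp2: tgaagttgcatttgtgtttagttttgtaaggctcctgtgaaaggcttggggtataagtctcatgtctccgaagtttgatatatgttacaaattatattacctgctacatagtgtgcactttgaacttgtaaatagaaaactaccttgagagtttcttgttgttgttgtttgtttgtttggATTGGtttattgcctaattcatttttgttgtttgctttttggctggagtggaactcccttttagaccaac
Pdk4: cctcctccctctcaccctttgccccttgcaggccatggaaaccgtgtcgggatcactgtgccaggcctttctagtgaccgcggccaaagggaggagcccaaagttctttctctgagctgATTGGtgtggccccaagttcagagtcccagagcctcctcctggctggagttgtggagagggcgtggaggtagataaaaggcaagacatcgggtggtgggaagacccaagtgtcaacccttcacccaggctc
Hadhb: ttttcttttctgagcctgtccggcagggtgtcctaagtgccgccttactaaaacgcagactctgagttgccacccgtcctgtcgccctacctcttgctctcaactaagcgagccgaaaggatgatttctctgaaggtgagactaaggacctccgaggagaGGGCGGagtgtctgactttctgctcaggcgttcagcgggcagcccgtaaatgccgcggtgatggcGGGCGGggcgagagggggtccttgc

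The capitals in Fabp1 are TGACCTATGGCCT, the opposite strand of the pattern AGGNCANAGGNCA that begins at position -67 from the start, and the TATA box TATAAA at position -30. The capitals in Fabp2 and Pdk4 are ATTGG, the opposite strand of the CCAAT box, at positions -70 and -131. The capitals in Hadhb are 2 GC boxes, GGGCGG. RefSeq windows of 300 bases, the 250 above plus 50 after the start, were held for 27 of the 31 members and were searched on both strands beside all 32851 windows of the table. The pattern AGGNCANAGGNCA, a direct repeat with 1 free base in each half-site, was in 0.381% of all windows and in 1 member window, Fabp1. The unrelaxed repeat AGGTCANAGGTCA was in 0.0396% of all windows and in 0 member windows. The single half-site AGGTCA, which is part of the unrelaxed repeat, was in 6 of 27 member windows (Creb3l3, Cpt1a, Acadm, Acadvl, Plin2 and Fabp1) and in 16.3% of all. GGGCGG was in 18 of 27 member windows, against 35.7% of all windows. CCAAT was in 14 of 27, against 37.4%, and TATAAA in 1 of 27, against 13.6%. The cyclic AMP response element TGACGTCA was in 0 of 27 and in 1.79% of all. These matches are letters in a window and say nothing about binding.

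Of the 31 members, 28 passed the filter on low counts and were tested. Levels between genes are compared as CPM, the counts scaled by library totals with their TMM factors, per kilobase of exon. On that scale the 28 tested members had a median of 21.7, against 3.37 for the 15652 genes tested in all. Fabp2, which binds fatty acids in the intestinal absorptive cell, stood highest at 202 ± 38.4 CPM per kb (SD, n = 21). The carnitine shuttle followed, with Cpt2 (the inner membrane carnitine palmitoyltransferase) at 66.4 ± 4.84 and Slc25a20 (the carnitine-acylcarnitine carrier) at 65.6 ± 7.16, a pair closer to each other than the spread of either. Hadh, the short-chain hydroxyacyl-CoA dehydrogenase, was at 59.2 ± 5.23, Cpt1a, the outer membrane enzyme that gates entry, at 54.5 ± 5.40, and Bdh1, which interconverts the ketone bodies acetoacetate and hydroxybutyrate, at 47.9 ± 4.0 CPM per kb. Angptl4, a secreted inhibitor of lipoprotein lipase, was the lowest of the tested members at 1.51 ± 0.817 CPM per kb.

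**Figure D1:**
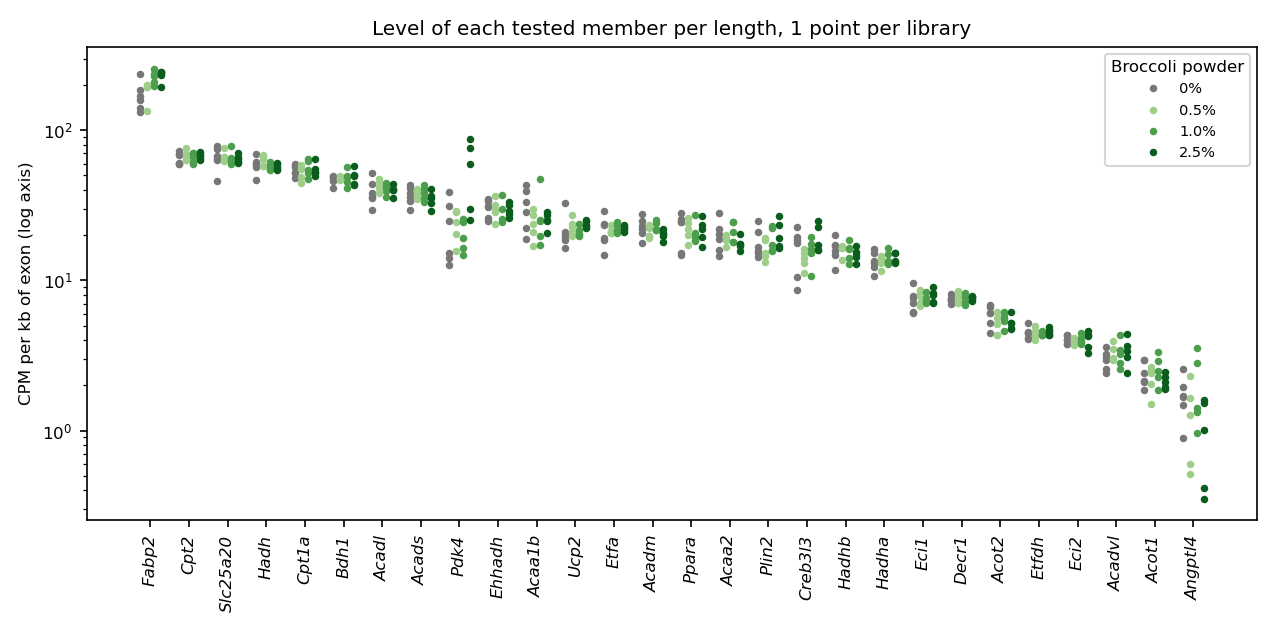
Level of the 28 tested members in CPM per kb of exon (log axis), 1 point per library, coloured by diet and ordered by mean level. Fabp2 stood highest and Angptl4 lowest, and the points of the 4 diets lay over each other for most members.

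The other 3 members were too low to test. Fabp1, the liver-type fatty acid binding protein and a textbook PPAR-alpha target of the small intestine, had 63 counts over all 21 libraries and 0 in 8 of them, although its relative Fabp2 was the highest member. Cyp4a10, a fatty acid omega-hydroxylase, had 34 counts in all and 0 in 10 libraries. A count of 0 here allows up to 3 counts, or 0.0512 to 0.105 CPM by the library totals without their TMM factors. Etfb, the beta subunit of the electron transfer flavoprotein, had 9 counts and 0 in 15 libraries, while its partner Etfa had 40.2 ± 4.92 CPM. Etfb shares 617 exonic bases on the same strand with the annotated gene Gm45233, which had 1225 counts, and 44.8% of its 50-base words occur in other genes, so its count is uncertain. Acaa1a, a peroxisomal thiolase that cells use widely and the close relative of the member Acaa1b, is listed at 0 in all 21 libraries. The values of Acaa1b are uncertain for the same reason, since 39.6% of its 50-base words occur in other genes. The same holds for Cyp4a10 (29.8%), Acot2 (27.7%), Hadhb (19.7%) and Acot1 (19.2%). Words were matched on both strands, and for Acadvl 26.9% are shared with Dvl2, a gene that overlaps it on the opposite strand. That overlap matters only if the counting ignored strand, which is not stated.

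Of 12 large bowel markers, taken from textbook knowledge, 11 were detected in every library. Car1 had 2868 to 5790 CPM, Slc26a3 had 536 to 1228 CPM and Aqp8 had 263 to 742 CPM, whereas Prss27 had 0.327 to 21.8 CPM with a median of 0.993, and Hoxb13 had 0 to 5.42 CPM with a median of 0. The mean log2 CPM of 20 small intestine markers ran from 0.28 to 5.20 and lay above 2 in 6 libraries (0% replicate 5, 0.5% replicates 1 and 4, 1.0% replicate 1, and 2.5% replicates 1 and 2). Of the 6 liver genes, Fgb was at 0, Alb at 0 to 0.101, Serpina1a at 0 to 0.914 and Apoh at 0.527 to 1.67 CPM, while Ttr had 5.01 to 11.6 and Cps1 had 5.41 to 36.6 CPM. No gene of the small intestine, large bowel, fat, smooth muscle, leukocyte, blood and liver lists was called in any comparison, and at 2.5% against 0% the median log2 change was -0.84 over 17 tested small intestine markers, 0.23 over 11 of large bowel, -0.70 over 10 of fat, -0.13 over 10 of smooth muscle, -0.14 over 10 of leukocytes, -0.67 over 4 of blood and 0.15 over 4 of liver. In whole tissue, fewer cells of a type and less RNA per cell cannot be told apart.

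No tested member passed the test in any of 6 comparisons (edgeR quasi-likelihood test, Benjamini-Hochberg over 15652 genes, called at an adjusted p under 0.05). The count was 0 of 28 at 0.5% against 0%, where 0.00639% of all genes were called. It was 0 of 28 at 1.0% against 0% (0% of all genes called) and 0 of 28 at 2.5% against 0% (0.109% called). It was also 0 of 28 for the mean of the 3 broccoli diets against 0% (0% called), for the slope per 1% broccoli powder (0.147% called) and for any difference among the 4 diets (0.0256% called). At an unadjusted p under 0.05 the members numbered 0, 1, 2, 1, 2 and 2 in the same order, and the shares of all genes were 7.14%, 3.18%, 8.43%, 6.58%, 7.32% and 6.41%. DESeq2 called 1 member, Pdk4, at 2.5% against 0% (0.512% of all genes called), along the slope (0.385%) and among the 4 diets (0.436%), and 0 in the other 3 (0.0139% of all genes at 0.5%, 0% at 1.0% and 0.0448% for the mean of the 3 diets). limma voom called 0 in all 6.

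The members did not lean to one side. Their median log2 change was -0.0034 at 0.5%, 0.020 at 1.0% and 0.016 at 2.5% against 0%, beside -0.0030, -0.0021 and -0.011 over all genes tested. Positive log2 changes were seen in 13, 17 and 15 of the 28 members at those doses. With 5 or 6 libraries a diet, the 95% interval of the log2 change lay within 0.5 on either side of 0 for 24 members at 0.5%, 24 at 1.0% and 22 at 2.5%. The 6 exceptions at 2.5% were Creb3l3, Acaa1b, Pdk4, Angptl4, Plin2 and Fabp2.

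**Figure D2:**
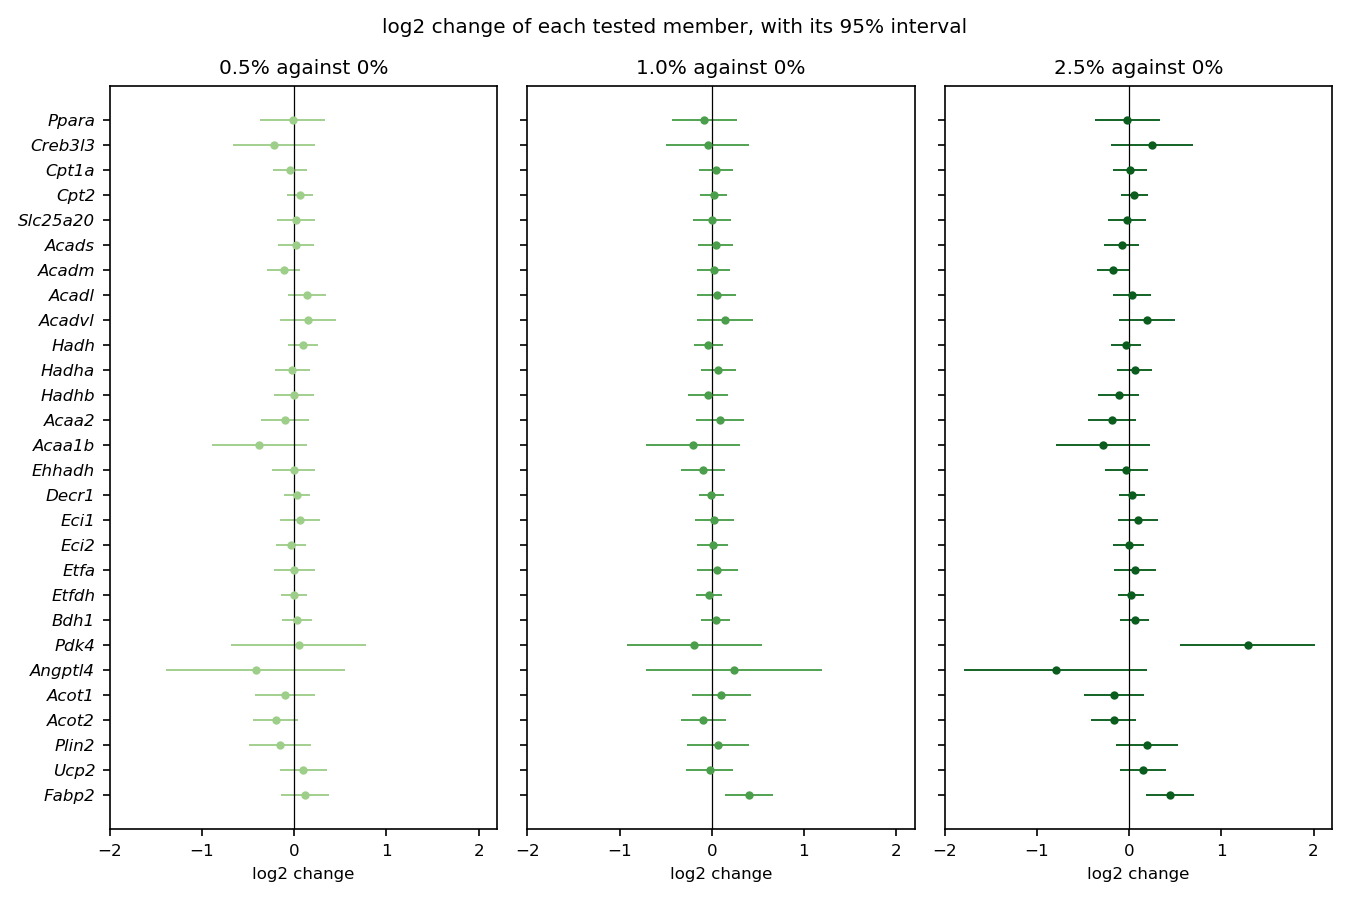
log2 change of each tested member against 0%, with its 95% interval (bars), at 0.5%, 1.0% and 2.5% broccoli powder from left to right. At 2.5% the intervals of Pdk4 and Fabp2 lie above 0, at 1.0% that of Fabp2, and at 0.5% all 28 take in 0.

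Of the regulators, Ppara, which encodes PPAR-alpha, averaged 84.7 ± 21.9 CPM at 0% (SD, n = 6), 83.8 ± 13.2 at 0.5%, 80.01 ± 14.03 at 1.0% and 83.4 ± 14.9 at 2.5% (n = 5 each). Its log2 change at 2.5% was -0.02 ± 0.17 (SE), with an interval from -0.37 to 0.33. Creb3l3, a liver and intestine transcription factor that works with PPAR-alpha in fasting, averaged 49.1 ± 16.5, 42.1 ± 5.88, 47.6 ± 9.75 and 58.2 ± 12.5 CPM in the same order of diets, and its log2 change at 2.5% was 0.25 ± 0.21 (adjusted p = 0.767, edgeR).

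In the carnitine shuttle, the log2 changes of Cpt1a, Cpt2 and Slc25a20 lay between -0.03 and 0.05 at 2.5% against 0%, and their intervals between -0.23 and 0.20. Cpt1a averaged 416 ± 33.4 CPM at 0%, 403 ± 43.0 at 0.5%, 429 ± 55.0 at 1.0% and 419 ± 42.9 at 2.5%.

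The 4 acyl-CoA dehydrogenases, which take the first step of each turn and differ in the chain length they prefer, had log2 changes of -0.17 to 0.20 at 2.5%. Acadm, the medium-chain enzyme, had 78.7 ± 5.73 CPM at 2.5% (n = 5), against 88.5 ± 13.2 at 0% (n = 6), a log2 change of -0.17 ± 0.09 (edgeR, adjusted p = 0.618). Acadvl, the very-long-chain enzyme and the lowest of the 4, had 9.61, 8.27, 6.45, 7.98, 6.94 and 8.63 CPM at 0%. Its values were 7.999, 7.96, 10.7, 8.12 and 9.33 CPM at 0.5%, 8.72, 9.29, 6.89, 7.52 and 11.7 at 1.0%, and 8.35, 9.09, 9.77, 11.9 and 6.54 at 2.5%. The diets overlapped throughout, and at 1.0% its log2 change was 0.15 ± 0.15 (edgeR, unadjusted p = 0.329, adjusted p = 0.999), the second lowest unadjusted p of the members in that comparison.

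For the later mitochondrial steps, Hadh, Hadha and Hadhb (the alpha and beta subunits of the trifunctional protein) and Acaa2 (a thiolase) had log2 changes of -0.19 to 0.06 at 2.5%, and the lowest adjusted p of the 4 was 0.703 (edgeR). The enzymes that clear double bonds, Decr1, Eci1 and Eci2, had log2 changes of -0.01 to 0.09. Decr1 had the smallest range over the 21 libraries of all tested members, with its highest library 1.24 times its lowest. Etfa and Etfdh, which hand the electrons on to ubiquinone, had log2 changes of 0.06 and 0.02.

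Of the peroxisomal members, Ehhadh (the bifunctional enzyme) had a log2 change of -0.03 ± 0.11 at 2.5%. Acaa1b, a peroxisomal thiolase, varied far more. It had 77.03, 84.4, 44.1, 56.0, 37.2 and 65.0 CPM at 0%, and 33.3, 46.3, 58.7, 41.3 and 53.4 CPM at 0.5%. At 1.0% it had 38.7, 92.7, 49.4, 33.9 and 48.8 CPM, and at 2.5% it had 48.7, 53.9, 55.6, 49.3 and 40.8 CPM. The 0% libraries spanned all those of 2.5%, and 1.0% replicate 2 lay above every other library. The log2 change of Acaa1b was -0.38 ± 0.24 at 0.5% against 0% (edgeR, unadjusted p = 0.138, adjusted p = 0.740), -0.20 ± 0.24 at 1.0% and -0.29 ± 0.24 at 2.5%.

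Bdh1 is the one ketone body enzyme among the members. It averaged 182 ± 11.7 CPM at 0%, 186 ± 4.03 at 0.5%, 187 ± 21.9 at 1.0% and 190 ± 22.4 at 2.5%, and its log2 change at 2.5% was 0.06 ± 0.08, with an interval from -0.10 to 0.22.

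Pdk4, which phosphorylates pyruvate dehydrogenase and turns cells from glucose to fat, had the largest fitted change of any member. Its values were 136, 110, 53.3, 49.3, 44.7 and 87.6 CPM at 0%, 85.4, 55.5, 99.9, 72.0 and 102 CPM at 0.5%, and 67.5, 85.4, 89.7, 52.0 and 57.7 CPM at 1.0%. At 2.5% it had 88.4, 105, 307, 268 and 210 CPM. The last 3 of these lay above all other libraries, and the first pair lay within the range of the 0% diet. The log2 change at 2.5% against 0% was 1.29 ± 0.35, or 2.44-fold (195.7 ± 96.9 CPM, n = 5, against 80.3 ± 37.6 CPM, n = 6). It did not pass the edgeR test (unadjusted p = 0.00169, adjusted p = 0.237), and DESeq2 gave 1.28 ± 0.34 with an adjusted p of 0.0327. The slope was 0.53 ± 0.13 per 1% broccoli powder (edgeR, adjusted p = 0.159; DESeq2, adjusted p = 0.0484). At 0.5% and 1.0% the log2 changes were 0.05 ± 0.35 and -0.19 ± 0.35.

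The 3 libraries with high Pdk4, 2.5% replicates 3, 4 and 5, were also the 3 highest in a list of 13 immediate early genes (Fos, Jun, Egr1, Atf3 and others that answer within minutes to stimuli and tissue handling). The list was added after the data had been seen. At 2.5% against 0%, 9 of its 13 genes had positive log2 changes and 4 had negative ones, with a median of 0.26. Of the 13, 0 were called, beside 0.109% of all genes. The list's mean log2 CPM was 6.45, 6.81 and 6.58 in those 3 libraries, against 5.28 to 6.28 in the other 18. Without them only 2.5% replicates 1 and 2 remained at that dose, and the Pdk4 log2 change at 2.5% was 0.27 ± 0.38 (edgeR, adjusted p = 0.998). A lower value was fixed in advance, since the libraries left out are those highest in Pdk4. With the list mean as a covariate the Pdk4 log2 change was 1.07 ± 0.38 (edgeR, adjusted p = 0.438). The same 3 libraries had the lowest summed level of 5 blood markers, 3.91 to 3.95 CPM against 4.65 to 8.38 CPM in the others, with 1 of the 5 at 0 throughout. The part of these lists in the Pdk4 values was not tested. When the 6 small-intestine-rich libraries were left out, only the 3 libraries with high Pdk4 remained at 2.5%. The Pdk4 log2 change at 2.5% was then 1.58 ± 0.34 (edgeR, adjusted p = 0.0648). That setting cannot separate small intestine content from the choice of the libraries with high Pdk4.

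**Figure D3:**
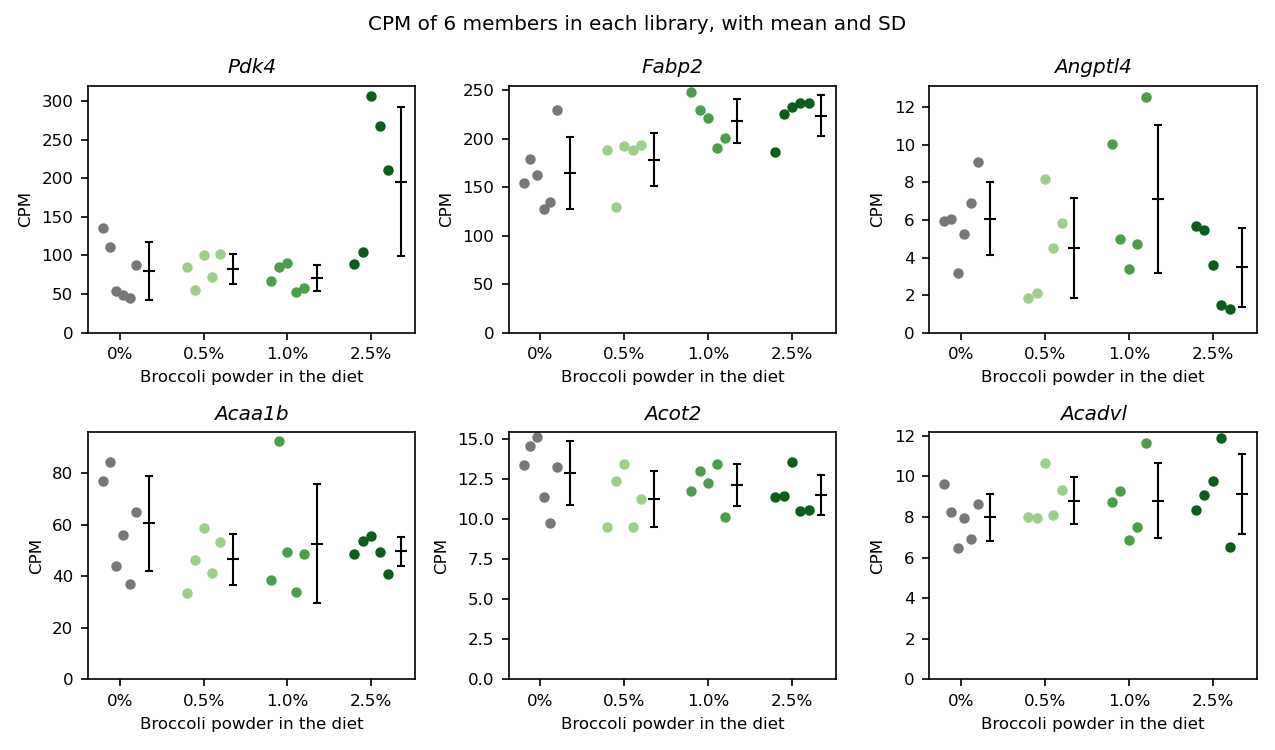
CPM of 6 members in each library (points) by broccoli powder in the diet, with mean and SD (bars) beside each group. Pdk4 reaches 210 to 307 CPM in 3 of the 5 libraries at 2.5%, Fabp2 is at 187 CPM or above in every library at 1.0% and 2.5%, and the diets overlap in all 6 panels.

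Fabp2 had 154, 179.6, 163, 127, 135 and 230.0 CPM at 0%, and 188, 129, 193, 188 and 194 CPM at 0.5%. At 1.0% it had 248, 229.6, 221, 191 and 201 CPM, and at 2.5% it had 187, 225, 233, 237 and 237 CPM. Of the 6 libraries at 0%, 5 lay below every library at 1.0% and 2.5%, and 0% replicate 6 lay among them. The log2 change was 0.11 ± 0.13 at 0.5%, 0.40 ± 0.13 at 1.0% (edgeR, unadjusted p = 0.00394, adjusted p = 0.999) and 0.44 ± 0.13 at 2.5% (unadjusted p = 0.00196, adjusted p = 0.251). The slope was 0.18 ± 0.05 per 1% broccoli powder (adjusted p = 0.304), and the mean of the 3 broccoli diets stood 0.32 ± 0.10 above 0% (unadjusted p = 0.00485, adjusted p = 0.651). Fabp2 is also expressed in the small intestine, and it was at 135 CPM in 0% replicate 5 and at 248 CPM in 1.0% replicate 1, the pair of libraries highest in the small intestine list (4.39 and 5.20). Without that pair the log2 change was 0.30 ± 0.13 at 1.0% (edgeR, adjusted p = 0.9997) and 0.39 ± 0.13 at 2.5% (edgeR, adjusted p = 0.361). Without the 3 libraries highest in the immediate early list the Fabp2 log2 change at 2.5% was 0.32 ± 0.18 (edgeR, adjusted p = 0.988). That setting keeps only replicates 1 and 2 at 2.5%, and replicate 1 was the lowest in Fabp2 at that dose.

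Angptl4 had the widest range of the tested members, 3.28 on the log2 scale. It had 5.93, 6.04, 3.18, 5.23, 6.91 and 9.09 CPM at 0%, 1.83, 2.13, 8.20, 4.51 and 5.86 CPM at 0.5%, and 10.03, 4.98, 3.40, 4.70 and 12.6 CPM at 1.0%. At 2.5% it had 5.68, 5.44, 3.596, 1.46 and 1.25 CPM. The diets overlapped, and the log2 change at 2.5% was -0.80 ± 0.47 (edgeR, adjusted p = 0.657). When the 6 small-intestine-rich libraries were left out it was -1.47 ± 0.57 (edgeR, adjusted p = 0.275). Without the 3 highest in the immediate early list it was -0.13 ± 0.56 (edgeR, adjusted p = 0.999). The first setting keeps 2.5% replicates 3, 4 and 5, the lowest in Angptl4 at that dose, and the second keeps only replicates 1 and 2. Both shifts therefore follow from how the 2.5% libraries were split.

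The level of Angptl4 was set beside 4 marker lists across libraries, the fat list first. This fit, with diet as a term, was added after the data had been seen. In it Angptl4 rose by 0.56 ± 0.11 log2 units per log2 unit of the fat list mean (edgeR, adjusted p = 0.00707). It was 1 of 28 members called in that fit, where 0.563% of all genes were called. With the fat, smooth muscle, large bowel and leukocyte lists in 1 fit the value was 0.51 ± 0.14 (adjusted p = 0.304), where 0 of 28 members and 0.396% of all genes were called. The fat list held 11 genes, 10 of them tested. Its mean log2 CPM, the value used in the fit, ran between 1.82 and 3.31 at 0% and between 1.26 and 3.31 at 0.5%. It ran between -0.56 and 3.91 at 1.0% and between 1.29 and 2.78 at 2.5%. The summed level ran between 137 and 299 CPM at 0% and between 112 and 339 CPM at 0.5%. At 1.0% the sum ran between 133 and 532 CPM, and at 2.5% between 141 and 255 CPM. Pck1, Lipe and Cidec never fell below 38.5, 28.8 and 23.8 CPM. Adipoq ran from 0 to 63.8 CPM, and Ucp1, the brown fat uncoupling protein, from 0 to 0.101 CPM. Of the 28 members, 0 were called with the smooth muscle list (6.78% of all genes), 0 with the large bowel list (0%) and 0 with the leukocyte list (0.0895%), each fitted alone. In those fits the Angptl4 slope was 2.04 ± 0.70 on the large bowel list (edgeR, adjusted p = 0.264). It was 0.03 ± 0.50 on the smooth muscle list and -0.27 ± 0.54 on the leukocyte list. The part of fat cells, or of any other cell type, in the Angptl4 values was not tested.

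**Figure D4:**
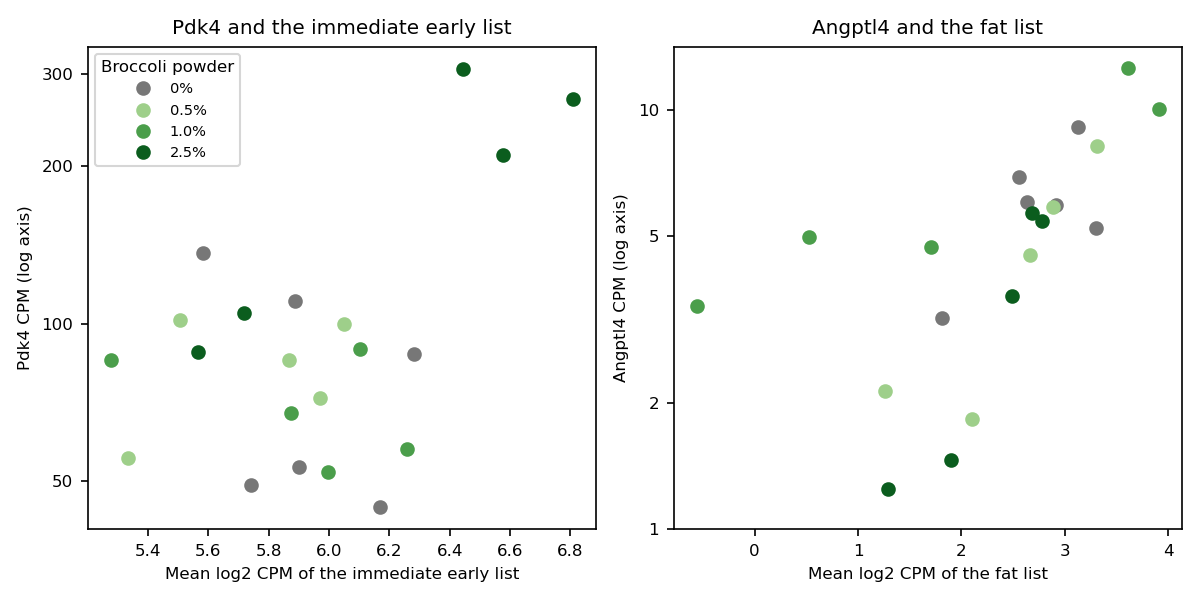
Left, Pdk4 CPM (log axis) against the mean log2 CPM of the immediate early list; right, Angptl4 CPM (log axis) against the mean log2 CPM of the fat list; 1 point per library, coloured by diet. The 3 libraries at 2.5% with Pdk4 at 210 CPM or above are the 3 farthest right in the left panel.

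The acyl-CoA thioesterases Acot1 (cytosolic) and Acot2 (mitochondrial), which release free fatty acids from coenzyme A, had log2 changes of -0.17 ± 0.16 and -0.17 ± 0.12 at 2.5%. Acot2 had 13.3, 14.5, 15.1, 11.4, 9.76 and 13.2 CPM at 0%, and 9.52, 12.4, 13.5, 9.52 and 11.2 CPM at 0.5%. At 1.0% it had 11.7, 13.01, 12.3, 13.4 and 10.1 CPM, and at 2.5% it had 11.4, 11.4, 13.5, 10.5 and 10.6 CPM. The diets overlapped. The log2 change of Acot2 was -0.20 ± 0.12 at 0.5% (edgeR, unadjusted p = 0.107, adjusted p = 0.717), the lowest unadjusted p of the members there, and -0.15 ± 0.09 for the mean of the 3 broccoli diets (adjusted p = 0.780). Plin2, which coats lipid droplets, had 72.4 ± 15.9 CPM at 2.5%, against 63.3 ± 14.6 at 0%, a log2 change of 0.20 ± 0.16. Ucp2, a mitochondrial carrier, had 166 ± 8.16 CPM at 2.5%, against 149.8 ± 40.9 at 0%, a log2 change of 0.15 ± 0.12.

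Some libraries were the lowest or highest for many members. In 0% replicate 5, 11 of the 28 members had their lowest value (7.74% of all genes tested did), 26 of 28 lay below their own mean over the 21 libraries, and the median deviation was -0.30 on the log2 scale, against 0.0073 for all genes. That library was second highest in the small intestine list, at 4.39. In 1.0% replicate 1, the highest in that list, the median deviation of the members was -0.08 and 0 had their lowest value. In 0.5% replicate 1, 6 members had their lowest value (5.05% of all genes) and the median deviation was -0.06. In 0% replicate 2, 7 members had their highest value (4.69% of all genes) and the median deviation was 0.21. In 1.0% replicate 2, 5 had their highest value (3.29% of all genes) and the median deviation was 0.16. Within a diet, the median SD of log2 CPM was 0.195 for members and 0.207 for all genes. The 2 sets were not matched on level, with medians of 21.7 and 3.37 CPM per kb.

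**Figure D5:**
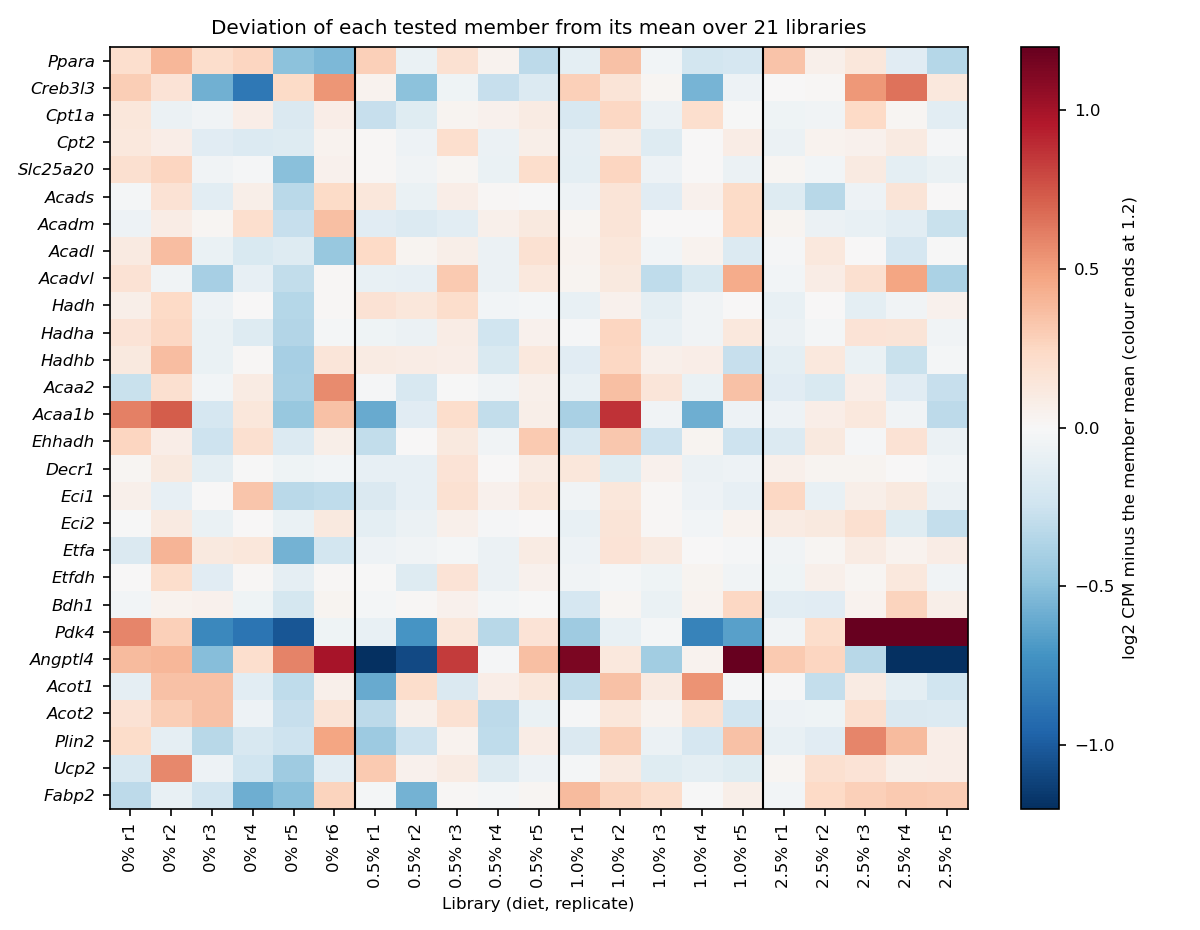
log2 CPM of each tested member minus its mean over the 21 libraries (colour, ends at 1.2), with libraries in columns by diet and members in rows. The column of 0% replicate 5 is blue in nearly all rows, and the row of Pdk4 is darkest red in 2.5% replicates 3 to 5.

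Partner members were compared across the 21 libraries after the diet means were removed (8 pairs, permutation tests with 100000 resamples, two-sided, Benjamini-Hochberg over the 8). Acot1 and Acot2, which lie side by side on chromosome 12 and share sequence, had Pearson's r = 0.64 (permutation p = 0.00176, adjusted 0.0137) and Spearman's rho = 0.68 (permutation p = 0.00093, adjusted 0.00744), and r was 0.64 without the 2 libraries farthest from the median of Acot1. Of the words of 50 bases in Acot2, 24.5% occur in Acot1, and the part of shared reads in the relation was not tested. Cpt1a and Slc25a20 had r = 0.56 (permutation p = 0.00582, adjusted 0.0137; rho = 0.56, permutation p = 0.0099, adjusted 0.0390) and 0.46 without 2 libraries. Slc25a20 and Cpt2 had r = 0.56 (permutation p = 0.0051, adjusted 0.0137; rho = 0.53, permutation p = 0.0146, adjusted 0.0390) and 0.50 without 2 libraries.

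Hadha and Hadhb, whose RefSeq starts lie 273 bases apart on opposite strands of chromosome 5 and whose promoter windows share 228 bases, had r = 0.57 (permutation p = 0.00687, adjusted 0.0137) and rho = 0.47 (permutation p = 0.0342, adjusted 0.0684). Their r was 0.24 without 0% replicates 2 and 5, so the relation rests on those libraries. Etfa and Etfdh had r = 0.43 (permutation p = 0.0528, adjusted 0.0846; rho = 0.25, permutation p = 0.276, adjusted 0.369), and -0.08 without the same 2 libraries. Ppara and Creb3l3 had r = -0.22 (permutation p = 0.340, adjusted 0.388; rho = -0.16, permutation p = 0.486, adjusted 0.486), and 0.04 without 0% replicates 5 and 6. The libraries fall into separate clusters in Pdk4, so its pairs with Angptl4 and Cpt1a are given no pooled r.

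The rest of the pathway was read from 2 lists of genes that are not members. In the 6 comparisons, 0% to 0.147% of all genes were called. Of 38 further fatty acid oxidation genes, 35 were tested and 0 were called in any of the 6. Of 38 further PPAR-alpha targets and cofactors, 32 were tested and 0 were called. Their median log2 changes at 2.5% were -0.02 and -0.04, with 16 of 35 and 13 of 32 positive. The oxidation gene with the lowest unadjusted p was Cpt1c, the brain-type carnitine palmitoyltransferase, with log2 changes of -0.45 ± 0.16 at 0.5%, -0.38 ± 0.16 at 1.0% and -0.40 ± 0.16 at 2.5% (edgeR, lowest adjusted p of the 3 = 0.507). Acsl3, an acyl-CoA synthetase, had 0.31 ± 0.13 at 2.5% (adjusted p = 0.509). Second in their comparisons were Pcca at 0.5% (0.23 ± 0.14), Acad8 at 1.0% (0.14 ± 0.08), Acad11 for the mean of the 3 diets (0.12 ± 0.06) and Acad10 along the slope (-0.07 ± 0.04). Among the PPAR-alpha list, Vnn1, a pantetheinase, had -0.71 ± 0.31 at 0.5% and -0.70 ± 0.31 at 2.5% (adjusted p = 0.685 and 0.551). Txnip, an inhibitor of thioredoxin, had 0.28 ± 0.12 at 2.5% (adjusted p = 0.516). The others with the lowest values were Pdk3 at 0.5% (-0.20 ± 0.11), Acot8 (0.14 ± 0.08) and Ech1 (0.19 ± 0.13) at 1.0%, Rxra for the mean of the 3 diets (0.09 ± 0.05) and Pdk1 along the slope (-0.06 ± 0.03).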

How the data were processed

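The authors deposited raw counts per gene for 21 cecum libraries, made from mRNA with a stranded ligation kit per the labels' protocols. The submitters' processing notes name the build mm10; for the aligner, counting tool, annotation and strand setting the sources used here state nothing. Names, exon lengths and overlaps came from GENCODE mouse release 21, promoters from RefSeq (GRCm38.p6). The members and lists were chosen with earlier results of these data known. The test of counts was that of edgeR 4.0.16 under R 4.3.3 (TMM, filterByExpr by diet with a minimum count of 10, robust quasi-likelihood test, 1 fit of all libraries), which kept 15652 of 25361 genes; 5881 were at 0 throughout. All tests were two-sided. DESeq2 1.42.0 and limma 3.58.1 voom were alternatives. CPM use TMM-scaled totals, and log2 CPM a prior count of 2. A depth of 28514263 to 58594569 counts sets the precision; floors cover counting error only. Tests were tried on simulated counts. Values per library are given for members called, for the 2 with the lowest unadjusted p in each comparison and for the 2 widest in range; of other pathway genes, those called and the 2 with the lowest p in each list and comparison. Replicate numbers follow accession order and pair nothing.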

Additional observations from a re-analysis of the deposited data

Results flagged for a closer look

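A library was set apart from the rest of its diet in 8 of 112 combinations of a member and a diet (7.14%), where chance gives about 1 in 20. The gap to the nearest library, as a share of the diet's whole range, passed the 95% critical value of Dixon's test. High values were Ppara in 1.0% replicate 2 (104 CPM, others 70.1 to 79.6), Acaa1b in 1.0% replicate 2 (92.7 CPM, others 33.9 to 49.4) and Etfa in 0.5% replicate 5 (42.8 CPM, others 38.0 to 39.1). Etfdh in 1.0% replicate 4 (34.3 CPM, others 32.3 to 32.8) and Ucp2 in 0% replicate 2 (230.1 CPM, others 115 to 148) were also high. Low values were Hadhb in 0.5% replicate 4 (90.1 CPM, others 108 to 112), Fabp2 in 0.5% replicate 2 (129 CPM, others 188 to 194) and Fabp2 in 2.5% replicate 1 (187 CPM, others 225 to 237). Fabp2 is the one member flagged in 2 diets.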

How the results depend on the processing

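No paired analysis was made, because each library was taken as a different mouse on 1 diet and the labels give no pairing. Leaving out each library in turn left 0 members called in all 6 comparisons. Under DESeq2 the count was 1 member, Pdk4, at 2.5% against 0%, 1 along the slope and 1 among the 4 diets (adjusted p = 0.00639 for the last), and 0 in the other comparisons; the cause was not tested. Under every other alternative it was 0. Of 4704 recomputed member values, 4368 kept their sign, 336 took the opposite one with no call on either side, and 2, both of Pdk4 under DESeq2, were called only in the alternative. Calls over all genes at 2.5% against 0% numbered 17, against 80 with DESeq2, 7 with limma voom, 121 when the 6 small-intestine-rich libraries were left out, 0 without the 3 highest in the immediate early list and 0 to 56 when 1 library was left out. The slope gave 23 calls, against 60, 9, 101, 0 and 0 to 56, and any difference among the 4 diets gave 4, against 68, 2, 86, 0 and 0 to 35. Leaving out the 6 small-intestine-rich libraries kept replicates 3, 4 and 5 at 2.5%. Leaving out the 3 highest in the immediate early list kept only replicates 1 and 2 there, so these settings split the same diet and are not separate checks. With all 21 libraries kept and the immediate early list mean as a covariate, these 3 comparisons gave 0, 0 and 0 calls over all genes. Fitting only the 2 groups compared gave 0 at 2.5% against 0%, and dose as a rank gave 0 along the slope. The immediate early covariate was chosen after seeing the data. So were the settings on small intestine and immediate early libraries, apart from leaving out the pair above the widest gap of the small intestine list. Fabp1, Cyp4a10 and Etfb, with 63, 34 and 9 counts in all, were not tested at this depth, and the cause of their low counts was not tested.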
